A study of Mus musculus with 6 samples.

Results

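Hmox1, Gclc, Slc7a11, Srxn1 and Akr1b8, genes of the antioxidant response, were followed through a cadmium exposure of mouse pancreatic beta cells. They were taken by name from the deposited table, as the brightest transcript cluster with a single gene symbol, and they make up 5 of the 18972 genes measured under 1 name. The genes were selected on their difference between cadmium and control over these 6 arrays, so their values are given as a description without a test. The samples were cultures of NIT-1, a mouse beta cell line. In 3 cultures the cells received cadmium sulphate (CdSO4) at 4 µmol/L for 24 h, after 24 h in the plate, and 3 control cultures were carried along in medium without it (0 µmol/L). All cultures were of 1 cell line, so no result extends beyond it, and the labels call the samples biological replicates without naming a passage or day for each.

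Cadmium binds thiol groups and drains glutathione, the main small thiol of the cell. In cells under such stress the transcription factor Nrf2, encoded by Nfe2l2, escapes the adaptor Keap1 and the ubiquitin ligase built on Cul3, pairs with a small Maf protein and binds antioxidant response elements, where the repressors Bach1 and Bach2 compete with it. Hmox1 encodes haem oxygenase 1, which opens the haem ring and releases iron, carbon monoxide and biliverdin. Slc7a11 encodes the transporter subunit that brings in cystine, and Gclc the catalytic subunit of glutamate-cysteine ligase, the rate-limiting enzyme of glutathione synthesis. Srxn1, sulfiredoxin, repairs over-oxidised peroxiredoxins, and Akr1b8 is an aldo-keto reductase that reduces reactive aldehydes. Beta cells are known for low levels of several enzymes that remove peroxide.

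The 300-base RefSeq windows of GRCm38.p6 that run from 250 bases before to 50 bases after the annotated start are shown because Nrf2 acts through short elements in DNA. Windows were found for 3 of the 5 genes, Srxn1, Slc7a11 and Akr1b8, and not for Hmox1 and Gclc. They are printed on the strand of the gene, 5′ to 3′, at chr2:152105274-152105573 (plus strand) for Srxn1, chr3:50443564-50443863 (minus strand) for Slc7a11 and chr6:34353896-34354195 (plus strand) for Akr1b8. Capitals mark matches on either strand to the short antioxidant response core TGANNNNGC, or to the metal response core TGCGCNC or TGCACNC.

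Srxn1: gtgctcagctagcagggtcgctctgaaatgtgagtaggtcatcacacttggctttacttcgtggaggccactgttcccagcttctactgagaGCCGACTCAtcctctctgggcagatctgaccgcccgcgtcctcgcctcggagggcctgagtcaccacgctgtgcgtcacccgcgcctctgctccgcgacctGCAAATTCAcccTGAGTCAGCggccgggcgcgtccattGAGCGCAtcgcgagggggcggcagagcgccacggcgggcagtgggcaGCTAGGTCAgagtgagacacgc

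Slc7a11: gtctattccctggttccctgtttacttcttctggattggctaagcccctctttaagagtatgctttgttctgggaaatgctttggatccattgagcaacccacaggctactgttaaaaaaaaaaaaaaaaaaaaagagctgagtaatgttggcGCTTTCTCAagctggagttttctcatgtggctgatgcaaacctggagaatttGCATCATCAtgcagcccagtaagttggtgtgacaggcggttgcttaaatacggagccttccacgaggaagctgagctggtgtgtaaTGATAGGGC

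Akr1b8: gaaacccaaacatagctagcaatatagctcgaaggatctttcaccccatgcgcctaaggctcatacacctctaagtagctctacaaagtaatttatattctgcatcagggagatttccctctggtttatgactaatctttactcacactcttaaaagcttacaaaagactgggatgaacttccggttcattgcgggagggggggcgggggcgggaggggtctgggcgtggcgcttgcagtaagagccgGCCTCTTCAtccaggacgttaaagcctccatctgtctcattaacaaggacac

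The stricter antioxidant response core TGACNNNGC was found once, in the Srxn1 window, on the opposite strand, from position 29 counted from 1 at the start. It occurred in 12.4% of all 32851 windows. The shorter core TGANNNNGC, which takes in every match to the stricter one, occurred in all 3 windows, 4 times for Srxn1, 3 times for Slc7a11 and once for Akr1b8, and in 41.3% of all windows. The metal response core was present once, in Srxn1, against 25.7% of all windows. The heat shock element core GAANNTTC was in 0 of the 3 windows and in 7.86% of all windows. A match is a stretch of letters in this window only and says nothing of binding, and windows farther from the start were not searched.

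The arrays gave 1 log2 signal per transcript cluster. The median over all clusters was between 3.39 and 3.40 on the cadmium arrays and between 3.34 and 3.35 on the control arrays. Signals over the 18972 genes correlated at 0.987 to 0.991 between groups and at 0.995 to 0.997 within each group. Principal component 1 held 61.2% of the variance and separated the groups. Component 2, with 15.6%, set cadmium replicate 1 and control replicate 3 against the rest, so changes are also given without both. An approximate background bound of 6.18 was set from 5222 negative control probes, as their 95th percentile on each array averaged over the arrays. The median over the 18972 genes was 4.13 to 4.18 on the arrays, so most genes lay below this bound. A place below it does not set a gene apart. Of the 14 beta cell markers looked for, 6 had a probe of a single name, among them Ins2, Iapp, Pdx1 and Slc2a2, and 0 of them had a group mean at or above the bound, so the label of the cell type could not be checked from these values. The mean of those 6 markers was 3.89 to 3.90 on cadmium arrays and 3.77 to 3.91 on control arrays, and limma called 0 of them (1 at an unadjusted p under 0.05). The single measured macrophage marker, Ptprc, was at 2.14 to 2.22 on cadmium arrays and 2.10 to 2.15 on control arrays. The single measured marker of alpha and delta cells, Gcg, was at 2.74 to 2.79 on cadmium arrays and 2.76 to 2.84 on control arrays. Among 2 stromal markers Col3a1 was lower with cadmium, at 8.06 ± 0.17 against 9.07 ± 0.13 in controls (SD, n = 3 each, limma adjusted p = 0.00183). The other, Col1a2, was at 5.11 ± 0.04 with cadmium and 5.14 ± 0.04 in controls (SD, n = 3 each, limma adjusted p = 0.675). Of 3 exocrine markers 1 was called, Cela2a, at 4.53 ± 0.03 in cadmium and 4.34 ± 0.03 in control arrays (SD, n = 3 each, limma adjusted p = 0.0436). Cpa1 did not pass, at 4.51 ± 0.08 with cadmium and 4.29 ± 0.05 in controls (limma adjusted p = 0.0619). Prss2 was slightly lower with cadmium, at 3.23 ± 0.10 against 3.31 ± 0.07 in controls (limma adjusted p = 0.53). The part of these markers in the results was not tested.

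All 5 genes had higher signals with cadmium, and for each gene every cadmium array lay above every control array. Over all genes 22.9% were separated in this way with cadmium higher. Nothing is read from the 5 of 5, since the same contrast chose them. The differences ran from 0.58 for Srxn1 to 2.17 for Hmox1 on the log2 scale, with a median of 0.99, beside a median of 0.04 over all genes. In cultures measured in bulk, more transcript per cell and more cells with the transcript cannot be told apart.

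Hmox1 had log2 signals of 7.27, 7.71 and 7.74 in cadmium replicates 1 to 3, against 5.66, 5.42 and 5.15 in control replicates 1 to 3. The lowest cadmium array stood 1.61 above the highest control array, and the controls differed among themselves by less than that gap. The means were 7.58 ± 0.26 with cadmium and 5.41 ± 0.26 in controls (SD, n = 3 each), a difference of 2.17 ± 0.21 (SE). All 3 cadmium arrays exceeded the 95th percentile of the negative probes on the same array and 0 of the control arrays did, so the fold is a bound, at least 2.62-fold higher with cadmium. This was the gene with the widest scatter within groups, where the median gene had an SD of 0.08 in each group. The increase ranked 4 among the 18972 genes.

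Gclc had log2 signals of 7.61, 7.97 and 7.95 with cadmium, against 6.83, 6.87 and 6.87 in controls. The control arrays nearly coincided and the cadmium arrays spread more, with replicate 1 the lowest. The means were 7.84 ± 0.20 with cadmium and 6.85 ± 0.02 in controls (SD, n = 3 each), a difference of 0.99 ± 0.12 (SE). Gclc was the 1 gene of the 5 with both means above the background bound, so its change is a measured ratio, 1.99-fold higher with cadmium.

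Slc7a11, upstream of Gclc as the source of cystine, had log2 signals of 4.57, 4.81 and 4.65 with cadmium, against 3.71, 3.80 and 3.99 in controls. The groups were separated by 0.57, and control replicate 3 was the closest control to the cadmium arrays. The means were 4.67 ± 0.12 with cadmium and 3.83 ± 0.15 in controls (SD, n = 3 each), a difference of 0.84 ± 0.11 (SE). All 6 arrays lay below the background bound, where changes may be compressed, and no fold is given.

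Srxn1 had log2 signals of 6.60, 6.61 and 6.76 with cadmium, against 6.08, 6.06 and 6.08 in controls. It had the smallest difference of the 5 genes and the tightest controls. The means were 6.66 ± 0.09 with cadmium and 6.07 ± 0.01 in controls (SD, n = 3 each), a difference of 0.58 ± 0.05 (SE). With the control mean below the bound the level was at least 1.38-fold higher with cadmium.

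Akr1b8 had log2 signals of 6.18, 6.20 and 6.14 with cadmium, against 4.44, 4.25 and 4.36 in controls. The gap between the groups, 1.69, was wider than for Hmox1 although the mean difference was smaller, and the arrays of each group spread less. The means were 6.17 ± 0.03 with cadmium and 4.35 ± 0.10 in controls (SD, n = 3 each), a difference of 1.82 ± 0.06 (SE), which ranked 14 among all genes. The cadmium mean fell just short of the bound, 2 of the 3 cadmium arrays exceeded the 95th percentile of the negative probes on the same array, and no fold is given.

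**Figure D1:**
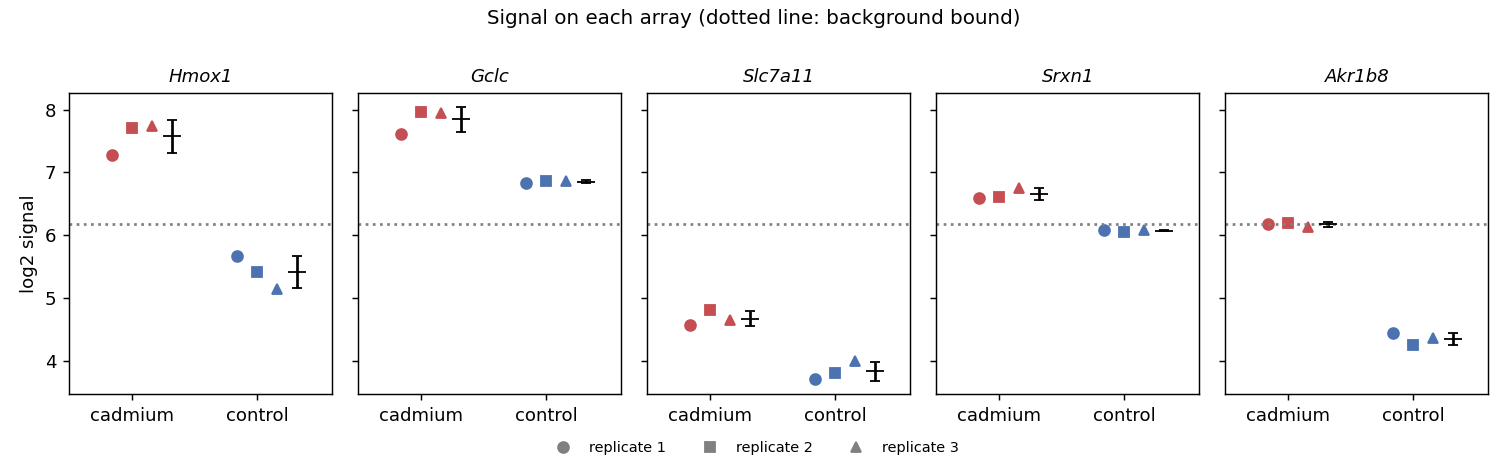
Log2 signal of Hmox1, Gclc, Slc7a11, Srxn1 and Akr1b8 on each array, cadmium at the left and control at the right of each panel, with the mean and SD (n = 3) as a black bar and the background bound of 6.18 as a dotted line. In every panel the 3 cadmium arrays sit above the 3 control arrays, and Gclc alone lies above the bound in both groups.

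The ranks of the increases were 169 for Gclc, 210 for Slc7a11 and 373 for Srxn1. The histogram of all changes places Hmox1 and Akr1b8 in a thin upper tail and the other 3 genes on the shoulder before it.

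**Figure D2:**
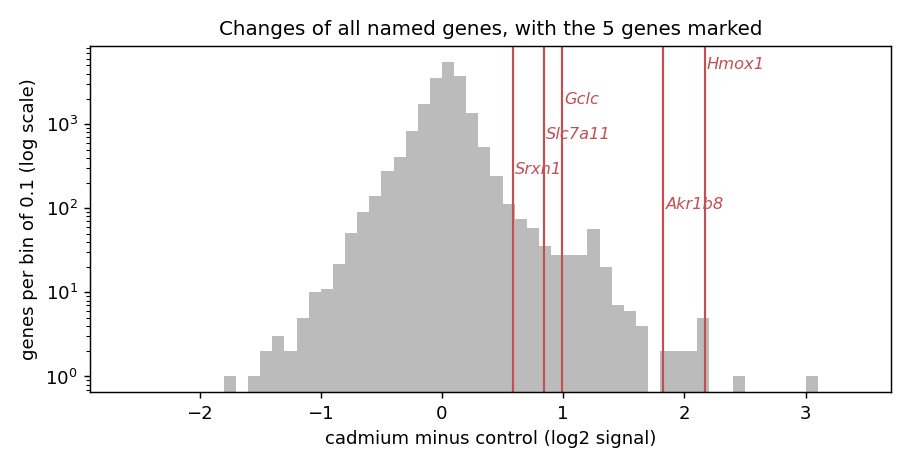
Number of genes (log scale) by difference between cadmium and control means in log2 signal, in bins of 0.1, for all 18972 genes, with a red line at each of the 5 genes. Srxn1 stands at 0.58, Slc7a11 at 0.84, Gclc at 0.99, Akr1b8 at 1.82 and Hmox1 at 2.17.

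The 5 genes did not vary alike among the cadmium cultures. On cadmium replicate 1, 4 of them had their lowest cadmium value, with Hmox1 0.30 and Gclc 0.23 below their group means and Slc7a11 0.11 and Srxn1 0.06 below. Akr1b8 was within 0.01 of its mean on that array and had its lowest value on cadmium replicate 3. In the controls replicate 3 held the lowest Hmox1 value and the highest Slc7a11 value. Without cadmium replicate 1 and control replicate 3 together, the differences were 2.19 for Hmox1, 1.11 for Gclc, 0.97 for Slc7a11, 0.61 for Srxn1 and 1.82 for Akr1b8. With any 1 array left out, Hmox1 ranged from 2.04 to 2.32 and Akr1b8 from 1.77 to 1.87. Gclc ranged from 0.93 to 1.11, Slc7a11 from 0.77 to 0.92 and Srxn1 from 0.53 to 0.61. The order of the 5 differences was the same in each of these settings.

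**Figure D3:**
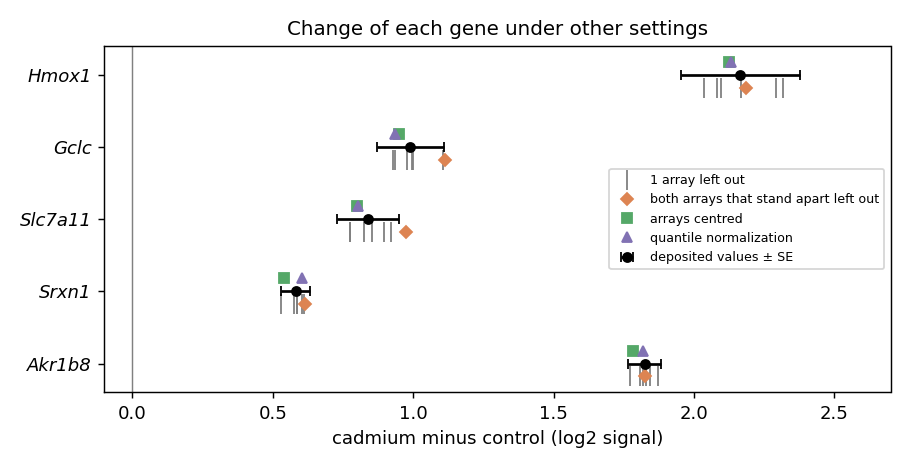
Difference in log2 signal, cadmium minus control, for each gene with the deposited values (black, ± SE), with arrays centred or quantile normalized, with 1 array left out (ticks) and with both arrays that stand apart left out (diamonds). All points lie above 0, Hmox1 between 2.04 and 2.32 and Srxn1 between 0.53 and 0.61.

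The likeness of 2 profiles was measured as the root mean square difference between their 6 log2 values, each gene centred on its own mean. Genes outside the 5 were drawn from 1308 with a group mean at or above the bound. Predicted and RIKEN genes, pseudogenes, small RNA genes and olfactory and vomeronasal receptor genes had been left out of the 1308. Among the 5 genes themselves Gclc and Slc7a11 were closest, at 0.13, followed by Slc7a11 and Srxn1 at 0.18. Hmox1 and Srxn1 were farthest apart, at 0.82. Outside the 5 genes the nearest to Srxn1 was Mafk, at 0.05, which encodes a small Maf partner of Nrf2. Nearest to Gclc were Hspe1, a mitochondrial co-chaperonin gene, and Abhd5, a lipase co-activator gene, both at 0.05. Nearest to Slc7a11 were Csrp1, a LIM-domain protein gene, at 0.06 and Cnbp, a nucleic acid-binding protein gene, at 0.09. Hmox1 was closest to the small heat shock protein gene Hspb1, at 0.14, and to the metallothionein gene Mt2, at 0.19. Akr1b8 had no close match among the 1308: its nearest were the histone demethylase gene Kdm1a at 0.25 and Mt2 at 0.27. Genes with both means below the bound, as Akr1b8 itself had, were not searched. The distances reflect mostly the size of the change between groups, and no p is attached to them.

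The other genes of these pathways were drawn from 8 lists with 127 genes beside the 5, of which 62 could be measured by a probe of their own name and 65 were not analysed here. With limma, 15 of the 62 rose and 5 fell at a Benjamini-Hochberg adjusted p under 0.05 over all genes. This was 24.2% higher and 8.06% lower, beside 6.47% higher and 5.72% lower among all genes (12.2% in either direction). All genes include many dim ones, and shares at like signal levels were not compared. With only genes at or above the median level tested, 1129 of all genes rose and 1178 fell, and 15 and 5 of the lists. The median difference was 0.12 over the 62 genes and 0.04 over all genes. The lists were chosen with earlier results of these data known. Counts of single lists below are to be read beside the 6.47% higher and 5.72% lower among all genes. Both group means lay below the background bound for 11 of the called list genes. The count of 15 was 9 without cadmium replicate 3. The count of 5 was 3 without cadmium replicate 1, cadmium replicate 2 or control replicate 3, 2 without cadmium replicate 3 or control replicate 1, and 1 without control replicate 2. Over all genes 1227 rose and 1086 fell. These counts were 609 and 542 without cadmium replicate 2, 627 and 554 without cadmium replicate 3, 609 and 582 without control replicate 1, and 611 and 531 without control replicate 2. The share of higher genes among all calls was 53% as deposited, 38% after subtraction of array medians and 43.4% after quantile normalization.

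Among the regulators of Nrf2, 6 of 12 were measured, of which 1 rose and 1 fell. Mafk rose, with 6.62, 6.62 and 6.78 in cadmium replicates against 6.06, 6.06 and 6.20 in controls, a difference of 0.57 ± 0.07 (SE, limma adjusted p = 0.00333). Cul3, the scaffold of the ligase that marks Nrf2 for breakdown, fell to 8.11 ± 0.06 with cadmium, against 8.49 ± 0.15 in controls (SD, n = 3 each, limma adjusted p = 0.0281). Its call ended without cadmium replicate 2, cadmium replicate 3 or control replicate 2, at an adjusted p of up to 0.0976. Bach2 was at 5.13 ± 0.10 with cadmium and 4.93 ± 0.12 in controls (SD, n = 3 each, limma adjusted p = 0.142). Its difference of 0.21 was 0.33 without both arrays that stand apart, where it passed (limma adjusted p = 0.0189), as it did with array weights (0.035). Nfe2l3, an Nrf2 relative, was at 4.07 ± 0.06 with cadmium and 4.02 ± 0.08 in controls (limma adjusted p = 0.63). The genes for Nrf2 and Keap1, Nfe2l2 and Keap1, were added after their values were seen. Nfe2l2 was at 7.14, 6.56 and 6.49 with cadmium, against 6.39, 6.39 and 7.26 in controls, so that cadmium replicate 1 and control replicate 3, the arrays that stand apart, held the highest values. Its difference was 0.05 ± 0.27 (SE, limma adjusted p = 0.928), and 0.13 without those arrays (limma adjusted p = 0.169). With 1 array left out the difference ran from -0.16, without cadmium replicate 1, to 0.34, without control replicate 3, and it was also below 0 without control replicate 1 or 2. Keap1 was at 5.51 ± 0.02 with cadmium and 5.52 ± 0.04 in controls (limma adjusted p = 0.848), and its difference of -0.02 became 0.002 after quantile normalization. A p that misses the threshold does not show that either level was the same, and Nrf2 is known to be controlled largely through the stability of its protein, which arrays do not measure. Whether Nrf2 had a part in the changes of the 5 genes was not tested.

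**Figure D4:**
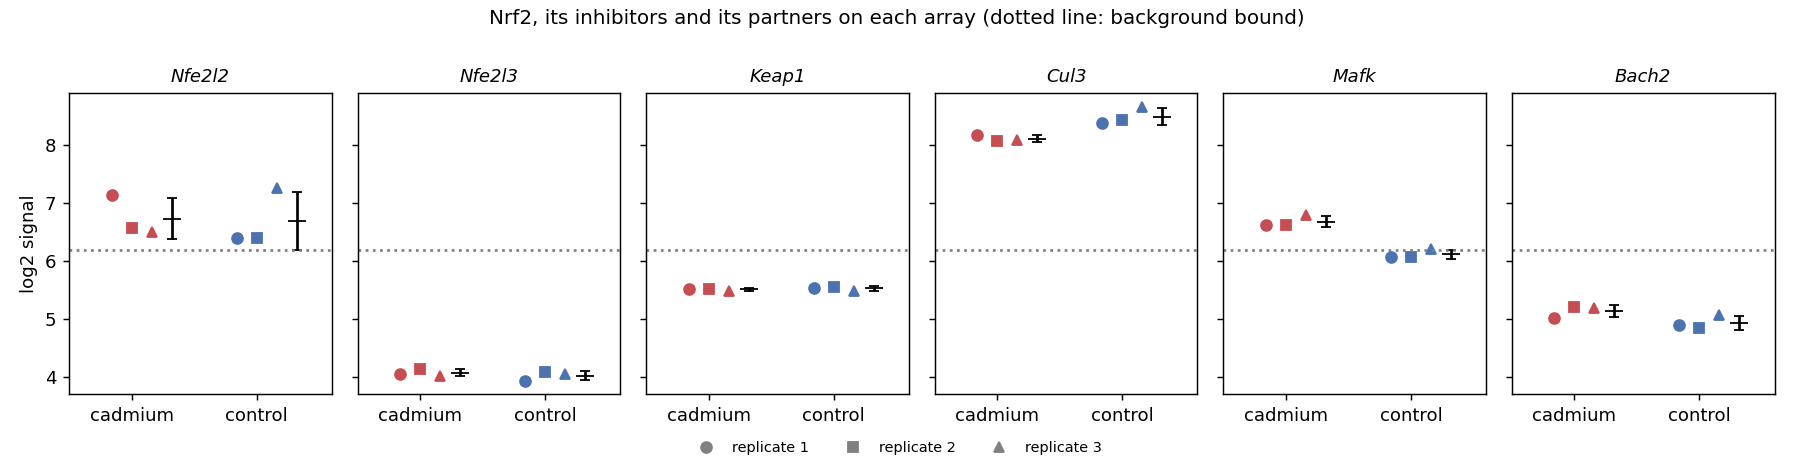
Log2 signal of Nfe2l2, Nfe2l3, Keap1, Cul3, Mafk and Bach2 on each array, cadmium left and control right, with the mean and SD (n = 3) as a black bar and the background bound of 6.18 as a dotted line. Mafk is higher and Cul3 lower on every cadmium array, and the 2 highest Nfe2l2 values are those of cadmium replicate 1 and control replicate 3.

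Around Hmox1, 12 of 18 other genes of haem and iron handling were measured, of which 3 rose and 0 fell (limma, 0 lower at an unadjusted p under 0.05). Ftl1, the ferritin light chain that stores the iron haem oxygenase releases, had 6.68, 6.91 and 6.88 with cadmium, against 6.22, 6.33 and 5.90 in controls. It rose by 0.67 ± 0.12 (SE, limma adjusted p = 0.0129), at least 1.51-fold. Flvcr1, a haem exporter, rose to 5.02 ± 0.14 with cadmium, against 4.56 ± 0.03 in controls, below the bound in both groups (SD, n = 3 each, limma adjusted p = 0.0108). Blvrb, a biliverdin reductase, rose to 6.26 ± 0.12, against 5.89 ± 0.10 in controls (SD, n = 3 each, limma adjusted p = 0.0277). The calls of Ftl1, without cadmium replicate 2 or 3, and of Blvrb, without any 1 array other than cadmium replicate 1, ended at adjusted p of up to 0.0565 and 0.0967. The 5 measured genes of haem synthesis, Alas1, Alad, Uros, Urod and Ppox, did not pass. Ppox, protoporphyrinogen oxidase, was at 5.08 ± 0.05 with cadmium and 5.19 ± 0.04 in controls (SD, n = 3 each, limma adjusted p = 0.214). The haem-binding protein gene Hebp1 was at 5.57 ± 0.05 with cadmium and 5.36 ± 0.17 in controls, without passing (limma adjusted p = 0.179), and its difference of 0.20 was 0.11 without control replicate 3.

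Around Gclc, 6 of 18 other genes of glutathione synthesis, breakdown and reduction were measured, of which 2 rose and 0 fell (limma, 0 lower at an unadjusted p under 0.05). Gsr, the reductase that regenerates glutathione from its disulphide, had 5.41, 5.48 and 5.50 with cadmium, against 5.13, 5.07 and 5.06 in controls. It rose by 0.38 ± 0.05 (SE, limma adjusted p = 0.00534). Ggct, which breaks down gamma-glutamyl peptides, rose to 4.42 ± 0.04, against 4.17 ± 0.03 in controls (SD, n = 3 each, limma adjusted p = 0.0191). Both genes lay below the bound in both groups. The call of Ggct ended without cadmium replicate 2 or 3 or control replicate 1 or 2, at an adjusted p of up to 0.0738, and it was 0.0506 without both arrays that stand apart. Gss, which completes glutathione after Gclc, was at 5.13 ± 0.11 with cadmium and 4.97 ± 0.05 in controls and did not pass (SD, n = 3 each, limma adjusted p = 0.184), also without both arrays that stand apart (0.0649). Chac1, which degrades glutathione, spread widely, at 5.59, 6.44 and 6.24 with cadmium against 4.98, 5.68 and 6.00 in controls (limma adjusted p = 0.283). Its difference of 0.54 was 0.25 without control replicate 1 and 1.01 without both arrays that stand apart (limma adjusted p = 0.0564). Gclm, the regulatory partner of Gclc, was not analysed here.

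Beside Slc7a11, 4 of 11 other genes of cystine and cysteine supply were measured and limma called 0 of them (1 at an unadjusted p under 0.05, lower with cadmium). That gene was Cth, which makes cysteine by transsulfuration, at 6.33, 6.58 and 6.62 with cadmium against 6.73, 6.72 and 7.21 in controls (limma adjusted p = 0.139). Its difference of -0.38 was -0.22 without control replicate 3 and -0.125 without both arrays that stand apart. The cystine transporter gene Slc7a9 was at 3.32 ± 0.06 with cadmium and 3.22 ± 0.04 in controls (limma adjusted p = 0.278). Slc3a2, the heavy chain that carries Slc7a11 to the membrane, was not analysed here.

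Around Srxn1, 8 of 17 other thioredoxin and peroxiredoxin genes were measured, of which limma called 0 as higher (3 at an unadjusted p under 0.05) and 3 as lower. Prdx4, the peroxiredoxin of the endoplasmic reticulum, fell to 5.21, 5.60 and 5.63 with cadmium, against 6.06, 5.99 and 6.16 in controls (limma adjusted p = 0.0202). Both of its group means lay below the bound. The sestrin genes Sesn3 and Sesn1, stress-induced regulators of growth signalling, fell by 0.35 ± 0.05 and by 0.28 ± 0.06 (SE, limma adjusted p = 0.00697 and 0.0277), with levels below the bound. Prdx4 lost its call without any 1 control array, and Sesn1 without any 1 array other than control replicate 3, at adjusted p of up to 0.0672 and 0.102. Txn1, thioredoxin, had 6.92, 7.44 and 7.32 with cadmium, against 6.75, 6.81 and 6.74 in controls, and the third sestrin gene, Sesn2, had 6.72, 6.91 and 6.91 with cadmium against 6.21, 6.16 and 6.69 in controls. In both the groups did not overlap, and neither passed (limma adjusted p = 0.0612 for Txn1 and 0.0665 for Sesn2). Each passed without cadmium replicate 1 and control replicate 3 (limma adjusted p = 0.00831 for Txn1 and 0.00332 for Sesn2), with array weights, and where genes below the median level were left out of the test. Txn1 also passed without cadmium replicate 1 and Sesn2 without control replicate 3.

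Beside Akr1b8, 5 of 16 other aldo-keto reductases were measured, of which 1 rose and 0 fell (limma, 0 lower at an unadjusted p under 0.05). The riser was Akr1b10, the next gene along chromosome 6, with 3.99, 3.96 and 3.84 with cadmium against 3.38, 3.24 and 3.30 in controls. It rose by 0.62 ± 0.06 (SE, limma adjusted p = 0.00188), against 1.82 for Akr1b8, and all group means of both genes lay below the bound. Whether probes of these related genes share target sequence was not tested, and the 2 genes did not have identical values. Akr1a1, the general aldehyde reductase, was at 7.06 ± 0.05 with cadmium and 6.90 ± 0.18 in controls (limma adjusted p = 0.315). Its difference of 0.16 was 0.09 without control replicate 1, and 0.26 without control replicate 3, where it passed (limma adjusted p = 0.0436). Akr7a5 was at 5.25 ± 0.06 with cadmium and 5.15 ± 0.08 in controls (limma adjusted p = 0.339).

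Glutathione reductase, thioredoxin reductase and aldo-keto reductases draw on NADPH, and 8 of 11 genes of its supply were measured. Of these, 2 rose and 1 fell. Me1, cytosolic malic enzyme, had 6.27, 6.54 and 6.64 with cadmium, against 5.94, 5.80 and 5.67 in controls, and rose by 0.68 ± 0.11 (SE, limma adjusted p = 0.00928), at least 1.23-fold. Taldo1, transaldolase of the pentose phosphate pathway, rose 1.37-fold, at 6.65 ± 0.09 with cadmium against 6.19 ± 0.05 in controls (SD, n = 3 each, limma adjusted p = 0.00517). Idh2, the mitochondrial NADP isocitrate dehydrogenase, fell to 6.37 ± 0.09, against 6.65 ± 0.06 in controls (SD, n = 3 each, limma adjusted p = 0.0342). Its call ended without any 1 array other than cadmium replicate 2, at an adjusted p of up to 0.0968, and it was 0.0803 without both arrays that stand apart. Pgd and Pgls, of the oxidative branch of the pentose phosphate pathway, did not pass. Pgd was at 5.63 ± 0.05 with cadmium and 5.50 ± 0.07 in controls, and Pgls at 6.04 ± 0.04 with cadmium and 5.94 ± 0.06 in controls (limma adjusted p = 0.195 and 0.248). The Pgd difference of 0.13 was 0.06 without both arrays that stand apart.

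Of 24 other known Nrf2 targets 13 were measured, of which 6 rose and 0 fell (limma, 0 lower at an unadjusted p under 0.05). Osgin1, an oxidative stress-induced growth inhibitor, had 5.59, 5.59 and 5.45 with cadmium, against 5.08, 5.03 and 5.07 in controls (limma adjusted p = 0.00293). Nqo1, a quinone reductase, rose by 0.44 ± 0.07 (SE, limma adjusted p = 0.0107), at 3.24 with cadmium against 2.80 in controls. Those levels lay far below the bound, where the medians of the negative control probes were 2.50 to 2.55 over the arrays. Cat, catalase, rose by 0.43 ± 0.06 (SE, limma adjusted p = 0.0052), at 6.19 with cadmium against 5.76 in controls. Ptgr1, Gstm1 and Gsta3, which detoxify aldehydes and electrophiles, rose by 0.31, 0.28 and 0.25 (limma adjusted p = 0.0252, 0.0175 and 0.0273). Gstm1 was the 1 gene of the 6 with both means above the bound, at 1.22-fold, and 4 of the 6 had both means below it. The calls of Ptgr1, Gstm1 and Gsta3 ended when 1 of 3, 4 and 4 of the arrays was left out, at adjusted p of up to 0.0953, 0.0691 and 0.102. Gsta3 also missed with arrays centred (adjusted p = 0.0502) or quantile normalized (0.0557), and without both arrays that stand apart Gsta3 and Nqo1 missed at 0.0593 and 0.0545. Ugdh and Aox1 were 0.18 and 0.26 higher without passing (limma adjusted p = 0.0767 and 0.0987), and the Aox1 difference was 0.16 without cadmium replicate 1 and 0.14 without both arrays that stand apart. Ugdh passed where genes below the median level were left out (limma adjusted p = 0.0474). Of the 15 list genes that rose, 14 had promoter windows, and 5 of these held the stricter antioxidant response core in at least 1 window, beside 14% of all 27025 genes with a window. The shorter core was in 8 of the 14 beside 45% of all genes, the metal response core in 3 beside 28.2% and the heat shock element core in 0 beside 9.04%. A gene could have more than 1 window. The lists were built from antioxidant genes and known Nrf2 targets, and the list genes that did not rise were not counted. Nothing is therefore read from these shares about the genes that rose.

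**Figure D5:**
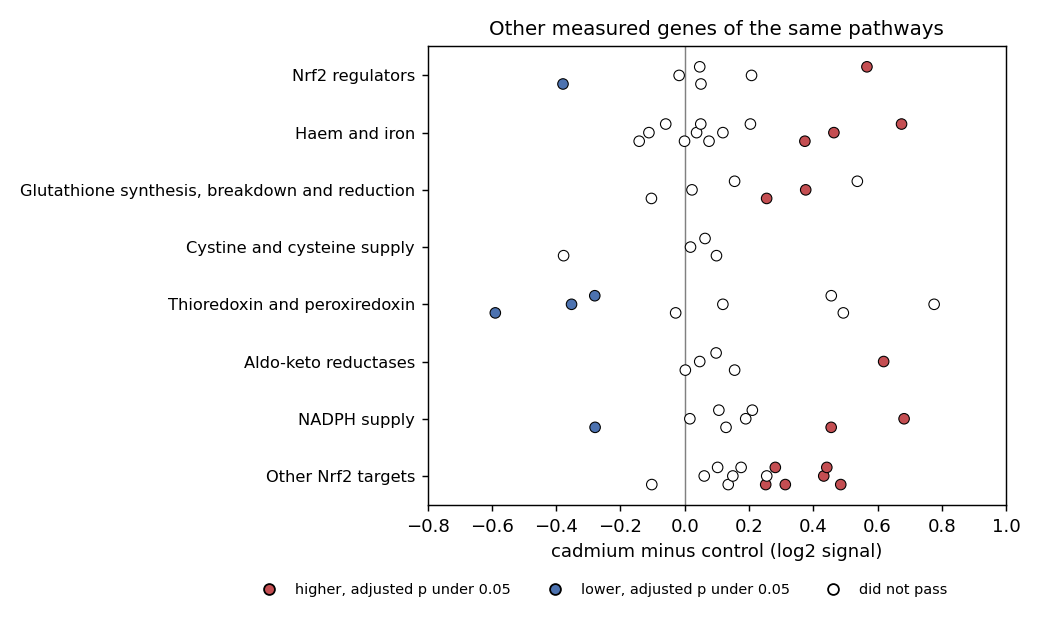
Difference in log2 signal, cadmium minus control, for each of the other measured genes in the 8 lists (1 point per gene, offset up or down to be seen), filled red where limma called it higher, blue where lower and white where it did not pass. Of the 15 red points 6 lie in the lowest row, other Nrf2 targets, and the cystine row and the thioredoxin row have 0.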

How the data were processed

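Biotin-labelled total RNA of 6 cultures was read on 1 array each, per the labels. The authors deposited 1 value per transcript cluster and array, of which the log2 scale is inferred from the range (0.45 to 13.10). How the authors corrected background and normalized, with which software, and the log base are not stated here, so folds hold only if the base is 2. Values were used without further scaling, and 0 columns of values had no sample.

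Of 39746 clusters 19205 named 1 gene in the platform annotation, after older symbols of a gene were merged through RefSeq (GRCm38.p6), 940 named several and 19601 had none. The brightest cluster stood for each of 18972 genes, of which 161 had more than 1. No source used here names the genome build of the probes. Folds are given only where a group mean reached the background bound, and with 1 mean below it the dimmer arrays were raised to that percentile of the negative probes on the same array where they lay under it.

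Groups came from the titles. limma 3.58.1 in R 4.3.3 (lmFit, eBayes, group as the only term, two-sided, Benjamini-Hochberg over 18972 genes, threshold 0.05) was run on the whole table and tested on simulated data. P-values weigh the group difference only against the spread among these cultures within groups, with variances moderated across genes. The 5 genes, the lists and the tests were chosen with earlier results of these data known. Named genes are the 5, all list genes past the threshold, up to 2 further per list by p, and the 2 nearest profiles per gene above the bound, of which 1 for Srxn1 is not reported here. The number of arrays limits the precision. Alternatives were array scaling, a filter on level, variance models, array weights, the replicate number, a stricter threshold and each array left out. Leaving out both arrays that stand apart was chosen after seeing the data. No protein comparison was made.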

Additional observations from a re-analysis of the deposited data

How the results depend on the processing

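The differences of Hmox1, Gclc, Slc7a11, Srxn1 and Akr1b8 kept their direction and moved by less than 1 SD under each alternative that could move them. These were centring, quantile normalization, array weights, and each array or both arrays that stand apart left out. The replicate block and the mean of probes could not move them. A block leaves the difference of group means unchanged in this balanced design, and each of the 5 genes had 1 probe. Under the 99th percentile of the negative controls, 8.41, 0 of the 5 genes reached the bound, so no fold could be given. Over all genes, 1227 rose and 1086 fell. Array weights gave 1877 higher, and a threshold of 0.01 gave 449 higher and 419 lower. With 1 array left out the counts ranged from 609 to 1318 higher and from 531 to 1043 lower. Of the other pathway genes, 15 rose and 5 fell, and with 1 array left out 9 to 16 rose and 1 to 3 fell. At a threshold of 0.01, 7 rose and 1 fell. Of the 20 called pathway genes 10 kept the call without each array in turn, and 0 reversed in any alternative. In the promoter windows, the stricter antioxidant response core was in 1 of 3 and the shorter core in 3 of 3, since the shorter one takes in more sequences. The replicate numbers gave no visible pairing of the arrays: deviations of arrays with the same number correlated at -0.108, 0.057 and -0.108, and 0 of 6 arrays were closest to their own number. The 2 arrays that stand apart bear different numbers, which shapes these values. The check therefore cannot tell whether the cultures were prepared in pairs. With the number as a block (replicate block), 744 genes rose and 644 fell. Of the pathway genes 10 rose and 2 fell, and 8 of the 20 called pathway genes lost the call. Apart from the promoter cores, the cause of these moves was not tested. Signal over background limits Slc7a11 and Akr1b8 most, and changes below the bound may be compressed.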
